A study of Mus musculus with 8 samples.

Results

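The genes described here encode the proteins of the cytosolic ribosome. They were taken from the expression table by symbol: Rpl or Rps followed by a number, with at most a letter and a digit after it, and Rpsa, Rplp0, Rplp1 and Rplp2. Symbols with the pseudogene ending and the S6 kinases were left out. The rule found 88 of the 28918 genes in the table. Of these, 77 are the core ribosomal protein genes (31 of the small 40S subunit and 46 of the large 60S subunit with its stalk), 6 are paralogs (Rpl3l, Rpl7l1, Rpl22l1, Rpl39l, Rps4l and Rps27l) and 5 are copy rows (Rps3a2, Rps3a3, Rps12l1, Rpl6l and Rpl32l). The GRCm38 annotation lists 82 of the 88 as protein coding and 6 as pseudogenes (the 5 copy rows and Rps4l).

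The ribosome reads messenger RNA on its small subunit and joins amino acids on its large subunit, and most of its proteins are needed in equal numbers. Their messages begin with a run of pyrimidines, the 5′ terminal oligopyrimidine (TOP) motif, through which the kinase complex mTORC1 and the RNA-binding protein LARP1 control their translation and stability. In tumors, ribosomal protein messages are among the most abundant of all transcripts.

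The study used B16-mhgp100, a mouse melanoma line that carries the gp100 antigen, grown under the skin of C57BL/6 mice. The Colq group had 3 tumors with over-expression of Colq, the gene of the collagen tail of acetylcholinesterase, and the Vector group had 3 tumors with the empty vector. Every mouse in both groups was given an antibody against the checkpoint receptor PD-1 (200 µg a dose, 4 doses at 2 per week, the first on day 10), and tumors were collected 1 day later than the final dose. Each Colq tumor gave 1 library; Vector tumors 1 and 2 gave 2 portions each and Vector tumor 3 gave 1, so that 8 libraries stood for 6 tumors. No group without the antibody was analysed here. RNA came from whole tumors, so fewer cells of a type and less RNA per cell cannot be told apart.

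Values are length-normalised transcript abundances (TPM), which sum to a fixed total in each library. They carry no trace of sequencing depth, and the depth is unknown. Portions of a tumor were averaged, and 3 Colq tumors were compared with 3 Vector tumors on log2(TPM + 1) with limma, with Benjamini-Hochberg adjustment over all 13726 genes with a mean of at least 1 TPM. Genes with an adjusted p under 0.05 were called higher or lower in Colq tumors; these p-values measure the spread between these samples only. Fold changes are log2 of Colq over Vector. Colq itself stood at 4.05, 5.03 and 3.86 TPM in Colq libraries and at 0 to 0.24 TPM in Vector libraries. Across all tested genes, 11.3% were called higher and 59.6% lower, and the median log2 fold change was -0.50. Dividing by size factors, which set the typical gene to no change, moved that median to 0.00 and the calls to 28% higher and 25.5% lower. The 3 Colq libraries were closely alike: over the 77 core genes, the median absolute log2 difference between a pair was 0.041 to 0.063, against 0.065 to 0.143 between Vector tumors and 0.063 to 0.173 between 2 portions of a single Vector tumor. Main counts are therefore also given with the Colq group reduced to the mean of its libraries, as a single sample, so that all spread comes from the Vector tumors; that alternative was added once the data had been seen.

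Ribosomal protein messages took up a larger part of the transcripts in Colq tumors. The 88 genes held 21.9%, 21.3% and 22.2% of all TPM in the 3 Colq tumors. In Vector tumors they held 15.7% and 15.3% in the portions of tumor 1, 15.9% and 14.2% in those of tumor 2, and 14.0% in tumor 3. All 3 Colq tumors lay above all 5 Vector libraries. The mean share was 21.8% ± 0.478 in Colq tumors, against 14.9% ± 0.748 in Vector tumors (SD, n = 3 each; exact two-sided permutation test, p = 0.1, the smallest p that 3 tumors against 3 allow).

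Both subunits had the larger share, but not in the same proportion. The 31 genes of the 40S subunit held 9.28% ± 0.237 of all TPM in Colq tumors, against 6.01% ± 0.349 in Vector tumors, and the 46 genes of the 60S subunit held 12.25% ± 0.227 in Colq tumors, against 8.73% ± 0.394 in Vector tumors (SD, n = 3 each). The ratio of summed 60S to summed 40S TPM was 1.314, 1.332 and 1.315 in the 3 Colq tumors. The same ratio was 1.437, 1.444 and 1.474 in the 3 Vector tumors. Every Colq tumor lay below every Vector library in this ratio (mean 1.32 ± 0.0103 in Colq and 1.45 ± 0.0193 in Vector; SD, n = 3 each; exact two-sided permutation test, p = 0.1). This is a ratio of messages and not of proteins.

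**Figure D1:**
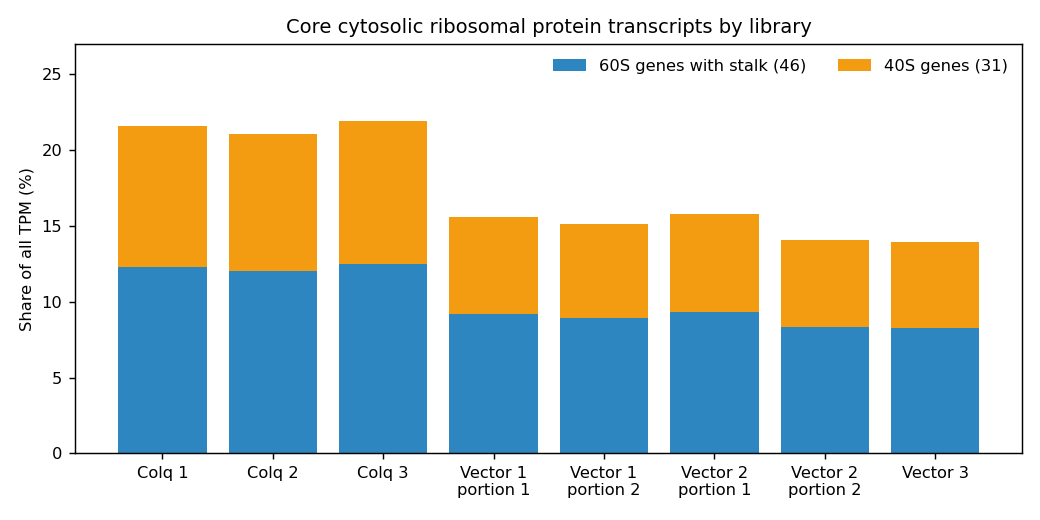
Share of all TPM (percent, vertical axis from 0) held by the 46 core 60S genes and the 31 core 40S genes, stacked, in each of the 8 libraries; portions of a Vector tumor are shown apart. The 3 Colq bars stand above all 5 Vector bars.

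Of the 86 genes that passed the filter, 69 were called higher in Colq tumors and 6 lower, while 11 were not called, beside 11.3% higher and 59.6% lower among all tested genes. Their median log2 fold change was 0.56, against -0.50 over all tested genes. Among the 77 core genes, 63 were higher, 6 were lower and 8 were not called, with a median of 0.53 and quartiles of 0.25 and 0.79. In 63 core genes all 3 Colq tumors lay above all 3 Vector tumors, in 6 they lay below, and in 8 the tumors overlapped; over all tested genes the tumors separated upward in 12.2% and downward in 62.4%. With size factors, 83 of the 86 were higher and 0 lower, with a median of 1.14. With the Colq libraries counted as 1 sample, 49 were higher and 1 was lower, beside 5.74% higher and 41.6% lower over all genes.

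The core genes were all abundant, with mean levels between 768.5 and 6167 TPM, a range of 8.03-fold, and a median of 2094 TPM. Rpl41, which encodes the shortest of the ribosomal proteins, had the highest mean. It stood at 8276, 7727 and 8398 TPM in Colq tumors, against 4497 and 3898 TPM in the portions of Vector tumor 1, 4386 and 4001 TPM in those of Vector tumor 2 and 4211 TPM in Vector tumor 3. The groups did not overlap (log2 fold change 0.95 ± 0.0514 SE, limma adjusted p = 1.5e-05). Rplp1 and then Rpl32, also of the large subunit, followed by mean level. Rpl32 stood at 7292, 6847 and 7266 TPM in Colq tumors and 4497 to 4923 TPM in Vector libraries, again without overlap (0.61 ± 0.0524 SE, limma adjusted p = 5e-05). Rpl36, also of the large subunit, ranged from 5932 to 6065 TPM in Colq tumors and from 3321 to 4481 TPM in Vector libraries (0.66 ± 0.0979 SE, limma adjusted p = 0.00065), and its call was lost with the Colq group as 1 sample (adjusted p = 0.051).

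The rank of the core genes by TPM was nearly fixed within a group and less so between groups. Spearman's rho over the 77 genes was 0.986 to 0.991 between pairs of Colq tumors, 0.961 to 0.982 between Vector tumors, and 0.767 to 0.811 between a Colq and a Vector tumor. The median absolute log2 difference between a Colq and a Vector tumor was 0.465 to 0.653. These are descriptions over genes of the same libraries, which are not independent replicates.

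Sequences around the annotated start of transcription are shown because the TOP motif sits at that start: the 3 core genes with the largest fold change (Rpl13a, Rps21 and Rpl34), 3 more that were higher (Rpl41, Rps27 and Rplp2, picked for a range of run lengths), and 3 of those called lower. Each is 30 bases, 10 before the annotated start and 20 from it onward, on the strand of the gene, from RefSeq on GRCm38.p6, which held a window for 63 of the 88 genes; capitals mark the longest unbroken run of C or T.
Rpl13a: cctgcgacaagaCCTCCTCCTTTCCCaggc
Rps21: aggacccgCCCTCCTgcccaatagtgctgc
Rpl34: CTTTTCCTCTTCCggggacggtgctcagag
Rpl41: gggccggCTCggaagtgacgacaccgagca
Rps27: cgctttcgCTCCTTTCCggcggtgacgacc
Rplp2: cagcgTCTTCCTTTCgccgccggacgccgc
Rpl4: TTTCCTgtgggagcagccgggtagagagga
Rps4x: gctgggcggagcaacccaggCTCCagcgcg
Rps2: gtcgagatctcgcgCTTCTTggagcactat
The windows lie at chr7:45128726-45128755 (minus strand) for Rpl13a, chr2:180257369-180257398 (plus) for Rps21, chr3:130730318-130730347 (minus) for Rpl34, chr10:128549149-128549178 (minus) for Rpl41, chr3:90213629-90213658 (minus) for Rps27, chr7:141447641-141447670 (plus) for Rplp2, chr9:64173377-64173406 (plus) for Rpl4, chrX:102189372-102189401 (minus) for Rps4x and chr17:24720053-24720082 (plus) for Rps2. The annotated start may differ from the start used in these tumors. In the GENCODE M21 annotation of GRCm38, the windows of Rps2, Rpl41, Rplp2, Rpl34, Rpl13a and Rpl4 lie inside the gene. The start of the gene there is at 24718116 for Rps2, 128549305 for Rpl41 and 141447370 for Rplp2. It is at 130730398 for Rpl34, 45128761 for Rpl13a and 64173375 for Rpl4.

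The longest C or T run in these windows did not follow the order of the fold changes. Among genes that were higher it was 14 bases in Rpl13a, 7 in Rps21, 13 in Rpl34, 3 in Rpl41, 9 in Rps27 and 10 in Rplp2. It was also short in Rpl22 (5) and Rpl5 (3), whose windows are not shown. The Rpl22 window ends at 152324455 on chromosome 4, before the GENCODE start of the gene at 152325742. Runs in windows that do not hold the GENCODE start, long or short, may thus not be those of the messages. No relation of run to fold change is read from them. Among genes called lower it was 6 in Rpl4, 4 in Rps4x and 6 in Rps2. A gene was counted as having a run or motif if any of its windows held it, so genes with more annotated starts had more chances. A run of at least 8 such bases, read on the gene's strand, was present in 23 of 57 core genes with a window (40.4%). It was present in 8.7% of 69 genes of the mitochondrial ribosome, in 13.8% of 9954 other tested genes and in 13% of all 27025 genes with a window. Within the core, the 23 genes with such a run had a median log2 fold change of 0.61 and the 34 without it 0.55. The ETS motif CCGGAAG, searched on both strands of the 300 bases from 250 before to 50 after the start, was present in 42.1% of the core genes, 37.7% of the mitochondrial ribosomal genes, 20.1% of other tested genes and 9.93% of all genes. These matches describe letters in a window and not sites in use.

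In the small subunit, 28 of the 31 genes were higher in Colq tumors, beside 11.3% of all tested genes. There 2 genes were lower (Rps4x and Rps2), beside 59.6%, and 1 (Rps26) was not called. The median log2 fold change of the 31 genes was 0.62. Rps21 had the largest change. It stood at 6195, 5615 and 6170 TPM in Colq tumors, against 3016 and 2693 TPM in the portions of Vector tumor 1, 3113 and 2538 TPM in those of Vector tumor 2, and 2371 TPM in Vector tumor 3. Every Colq tumor lay at more than any Vector library (log2 fold change 1.17 ± 0.0838 SE, limma adjusted p = 2.8e-05). Rps24, Rps12 and Rps19, the last of which is a gene of Diamond-Blackfan anaemia in humans, followed at 1.04, 1.01 and 1.00; they were picked out after their values were seen, as the other 40S genes with a log2 fold change above 1. Rps19 stood at 3255, 3113 and 3164 TPM in Colq tumors and at 1547 to 1740 TPM in Vector libraries, so the groups lay far apart (± 0.0482 SE, limma adjusted p = 1.2e-05).

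Rps27, which encodes a zinc-finger protein of the 40S subunit, had the largest standard error of the core genes. It stood at 6140, 5816 and 6734 TPM in Colq tumors, against 4097 and 3829 TPM in the portions of Vector tumor 1, 4528 and 3154 TPM in those of Vector tumor 2, and 2436 TPM in Vector tumor 3. The groups did not overlap, but the portions of 1 tumor differed by more than the Colq tumors did (log2 fold change 0.91 ± 0.177 SE, limma adjusted p = 0.0026; 0.079 with the Colq libraries as 1 sample). Rps6, the 40S protein phosphorylated by the S6 kinases, ranged from 2249 to 2383 TPM in Colq tumors and from 1779 to 1979 TPM in Vector libraries; it was named after its value was seen (0.31 ± 0.053 SE, limma adjusted p = 0.0014).

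Rps4x, the X-linked 40S gene, went the other way. It stood at 1944, 1883 and 1900 TPM in Colq tumors, against 2322 and 2360 TPM in the portions of Vector tumor 1, 2386 and 2198 TPM in those of Vector tumor 2, and 2089 TPM in Vector tumor 3. All Colq tumors lay below all Vector libraries (log2 fold change -0.23 ± 0.0572 SE, limma adjusted p = 0.0085), and with size factors the sign turned to 0.35. Rps2, near the entry of the messenger RNA channel, ranged from 2307 to 2324 TPM in Colq tumors and from 2383 to 2754 TPM in Vector libraries (-0.17 ± 0.0591 SE, limma adjusted p = 0.038; 0.41 with size factors). Its call was lost on leaving out any 1 Colq tumor, Vector tumor 1 or Vector tumor 3, with adjusted p between 0.052 and 0.11.

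In the large subunit, 35 of the 46 genes were higher, beside 11.3% of all tested genes. There 4 genes were lower (Rpl4, Rpl3 and Rpl8 among them), beside 59.6%, and 7 were not called. The median of the 46 genes was 0.48. Rpl13a, a 60S protein known in human cells for a second role in translational silencing of inflammatory messages, had the largest change of all core genes. It stood at 5761, 5681 and 5780 TPM in Colq tumors, against 2107 and 2174 TPM in the portions of Vector tumor 1, 2167 and 2505 TPM in those of Vector tumor 2, and 2892 TPM in Vector tumor 3. The 3 Colq tumors were close to each other and far above the highest Vector library (log2 fold change 1.24 ± 0.105 SE, limma adjusted p = 5e-05). Rpl34 followed, at 2753, 2690 and 2785 TPM in Colq tumors and 1155 to 1398 TPM in Vector libraries, with no overlap (1.12 ± 0.0667 SE, limma adjusted p = 1.9e-05).

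Rpl4, which lines the tunnel through which the new peptide leaves, had the lowest fold change of all. It stood at 1056, 1077 and 1099 TPM in Colq tumors, against 1538 and 1526 TPM in the portions of Vector tumor 1, 1516 and 1390 TPM in those of Vector tumor 2, and 1521 TPM in Vector tumor 3. The groups lay apart in every library (log2 fold change -0.48 ± 0.0473 SE, limma adjusted p = 9.4e-05), and with size factors the value was 0.10 with an adjusted p of 0.22. It was the 1 gene still called lower with the Colq group as 1 sample (adjusted p = 0.02).

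Rpl3, which reaches toward the peptidyl transferase centre, stood at 1425, 1422 and 1462 TPM in Colq tumors and 1565 to 1764 TPM in Vector libraries (log2 fold change -0.21 ± 0.0546 SE, limma adjusted p = 0.0097; 0.37 with size factors). Rpl8 stood at 2600 to 2663 TPM in Colq tumors and 2683 to 3182 TPM in Vector libraries (-0.16 ± 0.0587 SE, limma adjusted p = 0.041; 0.42 with size factors). Of these, Rpl8 lost its call on leaving out any 1 Colq tumor or Vector tumor 1 (adjusted p 0.084 to 0.13).

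**Figure D2:**
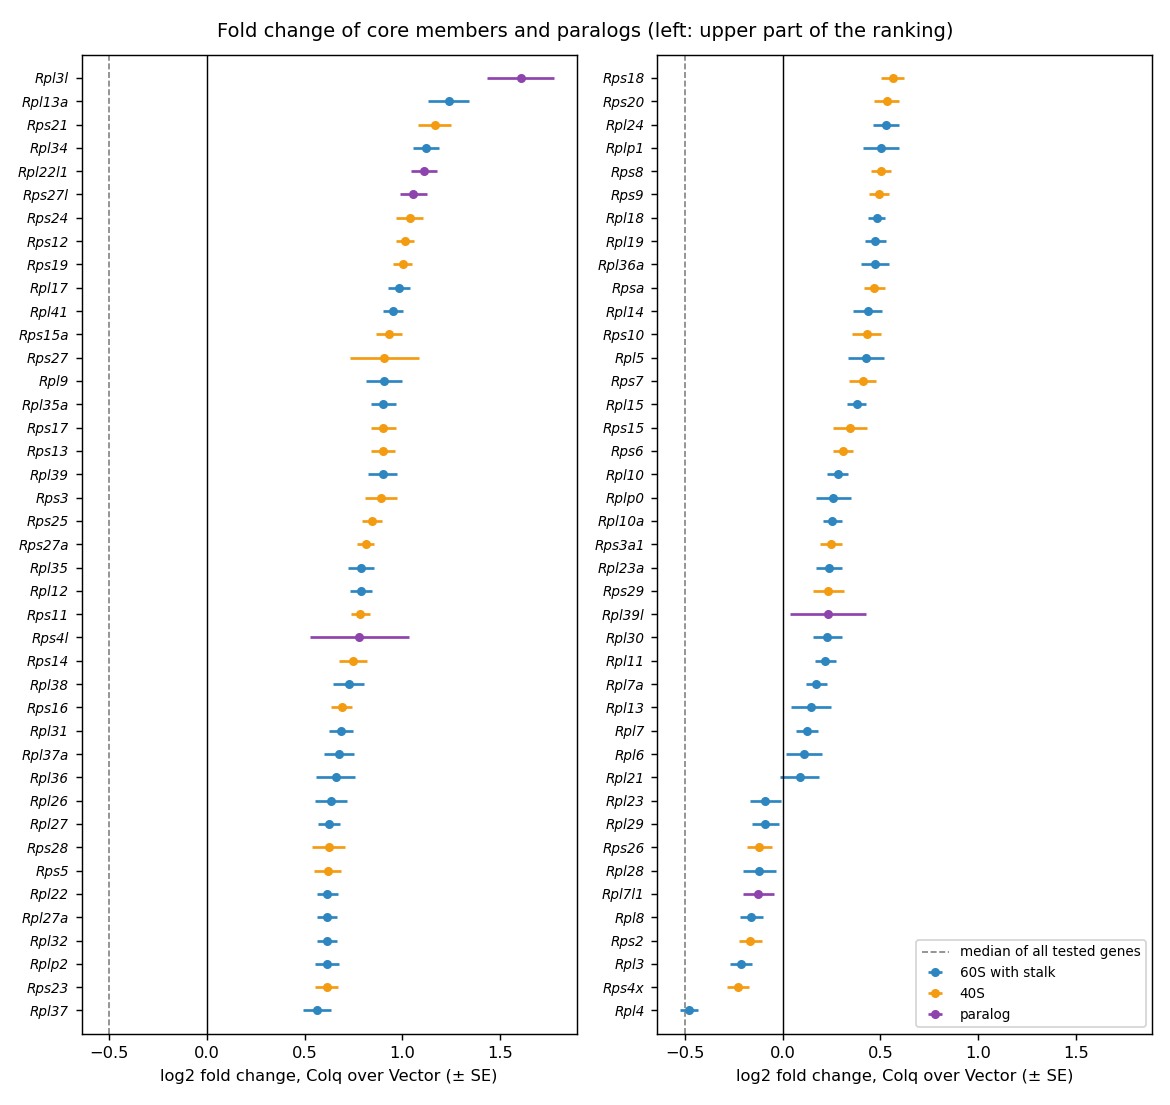
Log2 fold change of Colq over Vector with its standard error (horizontal axis) for the core genes reported here and the 6 paralogs, ranked, with the upper part of the ranking on the left; the dashed line is the median of all tested genes, -0.50. Rpl3l and Rpl13a lead and Rpl4 lies lowest; with size factors all 6 genes called lower had values above 0.

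The stalk, which recruits translation factors and is made of Rplp0 with pairs of Rplp1 and Rplp2, was higher in all 3 genes. Rplp1 stood at 6968, 7054 and 7288 TPM in Colq tumors, against 5626 and 5677 TPM in the portions of Vector tumor 1, 5409 and 4799 TPM in those of Vector tumor 2, and 4364 TPM in Vector tumor 3. The Colq tumors all lay above (log2 fold change 0.50 ± 0.0926 SE, limma adjusted p = 0.0019). Rplp2 stood at 2063 to 2262 TPM in Colq tumors and 1344 to 1583 TPM in Vector libraries (0.61 ± 0.0609 SE, limma adjusted p = 9.5e-05). Rplp0, often used as a housekeeping gene, stood at 2438 to 2552 TPM in Colq tumors and 1794 to 2377 TPM in Vector libraries (0.26 ± 0.0894 SE, limma adjusted p = 0.034), and lost its call on leaving out any 1 Colq tumor (adjusted p 0.079 to 0.1). With the Colq group as 1 sample, Rplp2 was called (adjusted p = 0.016) and Rplp1 and Rplp0 were not (adjusted p 0.086 and 0.27). The ratio of Rplp0 to the sum of Rplp1 and Rplp2 was 0.267, 0.28 and 0.255 in Colq tumors and 0.317, 0.336 and 0.314 in Vector tumors, without overlap (exact two-sided permutation test, n = 3 each, p = 0.1).

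Rpl5 and Rpl11 join the 5S ribosomal RNA in a particle that also binds Mdm2, the ubiquitin ligase of p53. Rpl5 stood at 1300 to 1326 TPM in Colq tumors, against 1007 and 1114 TPM in the portions of Vector tumor 1, 1084 and 1018 TPM in those of Vector tumor 2, and 835.2 TPM in Vector tumor 3. Rpl11 stood at 1672 to 1716 TPM in Colq tumors and 1352 to 1533 TPM in Vector libraries. Neither gene's groups overlapped, and both changes were modest (log2 fold change 0.43 ± 0.0935 SE for Rpl5, adjusted p = 0.0046, and 0.22 ± 0.0531 SE for Rpl11, adjusted p = 0.0073, both from limma). Neither call held with the Colq group as 1 sample (adjusted p 0.11 and 0.16). Among genes downstream of this particle, 0 of 7 tested were higher and 5 were lower, with a median of -0.72, beside 59.6% lower and a median of -0.50 over all tested genes. With size factors 2 were higher and 3 lower (median -0.15), and after a correction for transcript length and GC content 3 were higher and 3 lower (median -0.01), so no direction of the group is read from them. Trp53, which encodes p53, stood at 44.7 ± 2.05 TPM in Colq tumors, against 101.1 ± 10.1 TPM in Vector tumors (SD, n = 3 each; log2 fold change -1.15, limma adjusted p = 2.8e-05).

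Of 5 proteins at the peptide exit tunnel, 4 were higher (Rpl17, Rpl39, Rpl35 and Rpl23a), beside 11.3% of all tested genes. Rpl4 was lower, beside 59.6%. Rpl39 stood at 2155 to 2310 TPM in Colq tumors and 1083 to 1448 TPM in Vector libraries, with no overlap (log2 fold change 0.90 ± 0.073 SE, limma adjusted p = 4.2e-05). Genes of neighbouring positions in 1 structure thus had log2 values from -0.48 to 0.98.

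The paralogs resemble a core gene, and some of them are used in particular tissues or states. Rps4l is annotated as a transcribed processed pseudogene. Rpl3l, the form of striated muscle that takes the place of Rpl3, was scarce in every tumor. It stood at 2.59, 2.92 and 3.09 TPM in Colq tumors, against 0.32 and 0.35 TPM in the portions of Vector tumor 1, 0.58 and 0.23 TPM in those of Vector tumor 2, and 0.1 TPM in Vector tumor 3. Every Colq tumor lay above every Vector library (log2 fold change 1.60 ± 0.171 SE on the log2(TPM + 1) scale, limma adjusted p = 0.00013). Rpl3l passed the filter of 1 TPM only through the Colq tumors (mean 2.87 TPM, against 0.28 TPM in Vector tumors). Its call is therefore not free of the filter. For each 1000 TPM of Rpl3 there were 1.82, 2.05 and 2.11 TPM of Rpl3l in Colq tumors and 0.193, 0.238 and 0.0639 TPM in Vector tumors. Of 16 listed markers of skeletal muscle, 15 were tested and 15 were higher, beside 11.3% of all tested genes. With size factors from genes under 1500 bases 13 were higher, beside 10.6%. The list summed to 1041 to 1065 TPM in Colq tumors and 56.4 to 136.6 TPM in Vector tumors. The part of muscle RNA in this result was not tested.

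Rpl22l1, the paralog of Rpl22 that is known to trade places with it in T cell development, stood at 782.6, 733.4 and 764.1 TPM in Colq tumors. In Vector tumors it stood at 370.1 and 384.6 TPM in the portions of tumor 1, 395.8 and 321.1 TPM in those of tumor 2, and 322.2 TPM in tumor 3. The Colq values were all above, with a log2 fold change of 1.11 ± 0.0682 SE (limma adjusted p = 2e-05). Rpl22 itself ranged from 2245 to 2480 TPM in Colq tumors and from 1427 to 1682 TPM in Vector libraries (0.62 ± 0.054 SE, limma adjusted p = 5.6e-05). The ratio of Rpl22l1 to Rpl22 was 0.325, 0.327 and 0.308 in Colq tumors and 0.239, 0.231 and 0.212 in Vector tumors, with no overlap (exact two-sided permutation test, n = 3 each, p = 0.1).

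Rps27l, a target of p53 in human cells, stood at 1531, 1397 and 1643 TPM in Colq tumors and 688.1 to 790.1 TPM in Vector libraries, with no overlap (log2 fold change 1.06 ± 0.0687 SE, limma adjusted p = 2.2e-05). Its ratio to Rps27 was 0.249, 0.24 and 0.244 in Colq tumors and 0.19, 0.192 and 0.289 in Vector tumors. Here Vector tumor 3 was the highest and the groups overlapped (exact two-sided permutation test, n = 3 each, p = 0.4). Rpl7l1 stood at 78.8 to 85.3 TPM in Colq tumors and 71.9 to 100.4 TPM in Vector libraries and was not called (-0.13, limma adjusted p = 0.19; 0.44 and called with size factors); without Vector tumor 1 it was called lower (adjusted p = 0.032). Its parent Rpl7, at 1586 to 1681 TPM in Colq tumors and 1299 to 1589 TPM in Vector libraries, was not called either (0.12, limma adjusted p = 0.089), and was called without Vector tumor 3 (adjusted p = 0.011).

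Rpl39l, the form known from testis, stood at 0.97 to 1.5 TPM in Colq tumors and 0.34 to 1.56 TPM in Vector libraries, with full overlap (limma adjusted p = 0.32). Rps4l stood at 2.75, 4.11 and 4.06 TPM in Colq tumors and 0.87 to 2.63 TPM in Vector libraries (log2 fold change 0.78 ± 0.254 SE, limma adjusted p = 0.026), and lost its call without Colq tumor 2 or 3 (adjusted p 0.085 and 0.086). Rpl10l was not analysed here.

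**Figure D3:**
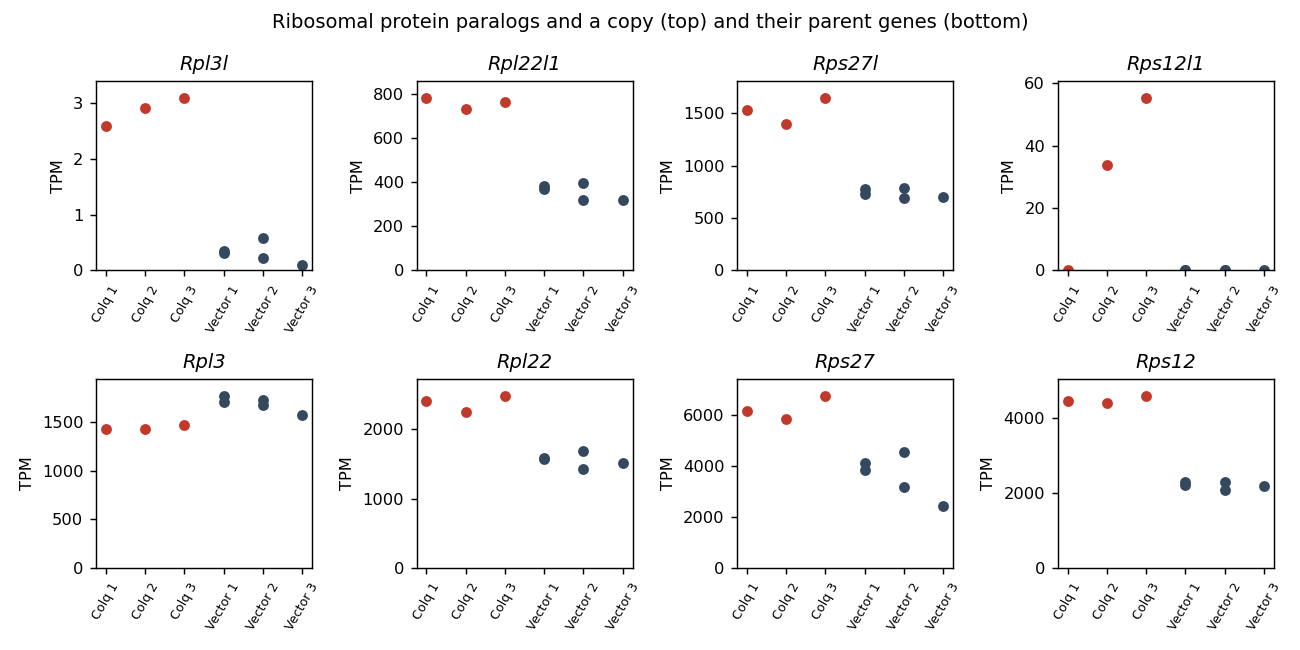
TPM (vertical axes from 0, each with its own scale) in every library, by tumor, of 3 paralogs and the copy Rps12l1 (top) above their parent genes (bottom); 2 points for Vector tumors 1 and 2 are their portions. Rpl3l, Rpl22l1 and Rps27l lay apart between the groups, Rpl3 was lower in the 3 Colq tumors (above 0 with size factors, at 0.37 log2), and Rps12l1 was listed at 0 in 1 Colq tumor and in all Vector libraries.

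The copy rows are near-identical to a core gene, and the estimate can move reads between copy and parent, so they are uncertain. Rps12l1 shares all 399 of its bases with Rps12 (identity 100%). It was listed at 0, 33.8 and 55.2 TPM in the 3 Colq tumors and at 0 in all 5 Vector libraries, so the groups overlapped and no fold is given; limma called it at an adjusted p of 0.045, and the call was lost on leaving out any tumor other than Colq tumor 1, which was the Colq tumor at 0 (adjusted p 0.085 to 0.15). Rps12 stood at 4443, 4411 and 4590 TPM in Colq tumors, so the copy was at most 1.19% of the pair. Rps3a2, with 99.5% identity to Rps3a1 over 792 bases, stood at 30.5 to 36.7 TPM in Colq tumors and 15.8 to 26 TPM in Vector libraries (0.69 ± 0.153 SE, limma adjusted p = 0.0048). Rpl6l was not called (adjusted p = 0.16). Rps3a3 and Rpl32l had means under 1 TPM and were not tested; Rps3a3 stood at 0.59 to 0.7 TPM in Colq tumors and 0.71 to 1.58 TPM in Vector libraries, and Rpl32l reached at most 0.67 TPM. A further 177 rows with the pseudogene ending, outside the rule, held 0.221% ± 0.036 of TPM in Colq tumors, against 0.135% ± 0.0264 in Vector tumors (SD, n = 3 each).

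The fold change of the core genes went with the length of the message. Spearman's rho of the log2 fold change over the 77 genes was -0.51 with coding length, -0.35 with the length of the principal transcript, -0.13 with GC content and 0.34 with mean TPM, as descriptions over genes that share the same libraries. Of 25 core genes with under 400 coding bases, 24 were higher and 0 lower, with a median of 0.69. Of 44 genes with 400 to under 800 coding bases, 36 were higher and 3 lower, with a median of 0.49, and of 8 genes with 800 or more, 3 were higher and 3 lower, with a median of 0.12. Over all tested genes, by contrast, 11.3% were called higher and 59.6% lower. Other genes were grouped by transcript length and not by coding length. Of these, 33% were called higher under 500 bases, 42% between 500 and 750, and 34.1% between 750 and 1000. The share fell further in each longer group. Among core genes, Rpl4 had the longest coding sequence, 1257 bases.

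All other genes showed a fall of the fold change with length as well. Among transcripts under 500 bases, 12 core genes had a median log2 fold change of 0.69 and 476 other genes 0.45. Between 500 and 750 bases, 25 core genes had a median of 0.63 and 566 other genes 0.24. Between 750 and 1000 bases the medians were 0.34 in 20 core genes and 0.12 in 645 other genes, and between 1000 and 1500 bases 0.19 in 12 core genes and -0.13 in 1445 other genes. In bins of longer annotated transcripts the core medians did not fall, but the core genes there were few. Between 1500 and 2000 bases the medians were 0.68 in 4 core genes and -0.32 in 1614 other genes. Between 2000 and 4000 bases they were 0.53 in 3 core genes and -0.58 in 4974 other genes. Between 4000 and 8000 bases they were 0.93 in 1 core gene and -0.86 in 2927 other genes. No core coding sequence exceeded 1257 bases, and some genes in these bins have short ones. Rps24 has 399 coding bases in 1613, and Rpl22 has 384 in 2048. The annotated transcript may therefore be longer than the message, so these bins do not show how long core messages behave. In genes of 8000 bases or more, with no core gene among them, the median was -1.07. Whether the length trend has a biological or a technical source was not tested.

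**Figure D4:**
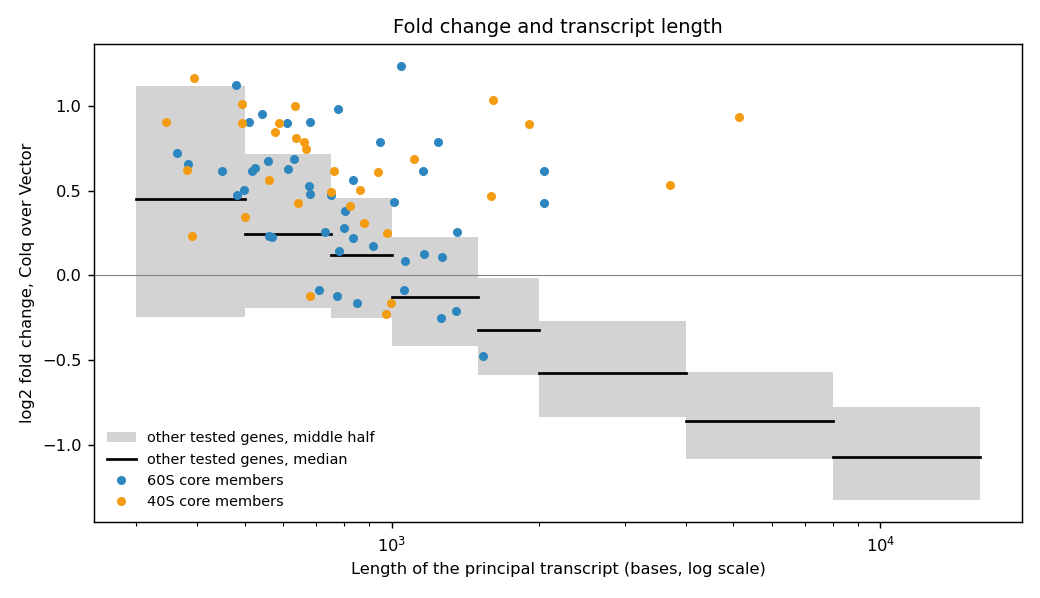
Log2 fold change of Colq over Vector against the length of the principal transcript in bases (log scale): points are the 77 core genes by subunit, black lines the medians and grey bands the quartile ranges of other tested genes in 8 length bins. The core genes lay mostly above the line of their bin, and the line falls from 0.45 in the shortest bin to -1.07 in the longest.

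After a loess correction for length and GC content, 60 of the 86 genes were higher and 3 lower, with a median of 0.44, beside 22.2% higher, 20% lower and a median of 0.01 over all genes. All 60 were among the 69 called higher before. The 3 called lower were Rpl4 (-0.26, limma adjusted p = 0.006), Rps4x (-0.30, adjusted p = 0.0065) and Rps26 (-0.36, adjusted p = 0.0033), a 40S gene that was not called before (-0.12). Rpl3, Rps2 and Rpl8 were no longer called (adjusted p 0.14 to 0.82). Rpl13a kept 1.31 and Rpl22l1 0.77. In the coding length groups the medians became 0.54, 0.37 and 0.18 from the shortest to the longest, and rho with coding length became -0.24. The lengths came from a GRCm38 annotation, and the deposited values from build mm39. Where the annotated transcript is longer than the message, the correction may raise a gene too far. Rpl22, annotated at 2048 bases with 384 coding bases, went from 0.62 to 1.03. Rps24, at 1613 bases with 399 coding bases, went from 1.04 to 1.23, while the median of the 86 genes went from 0.56 to 0.44.

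**Figure D5:**
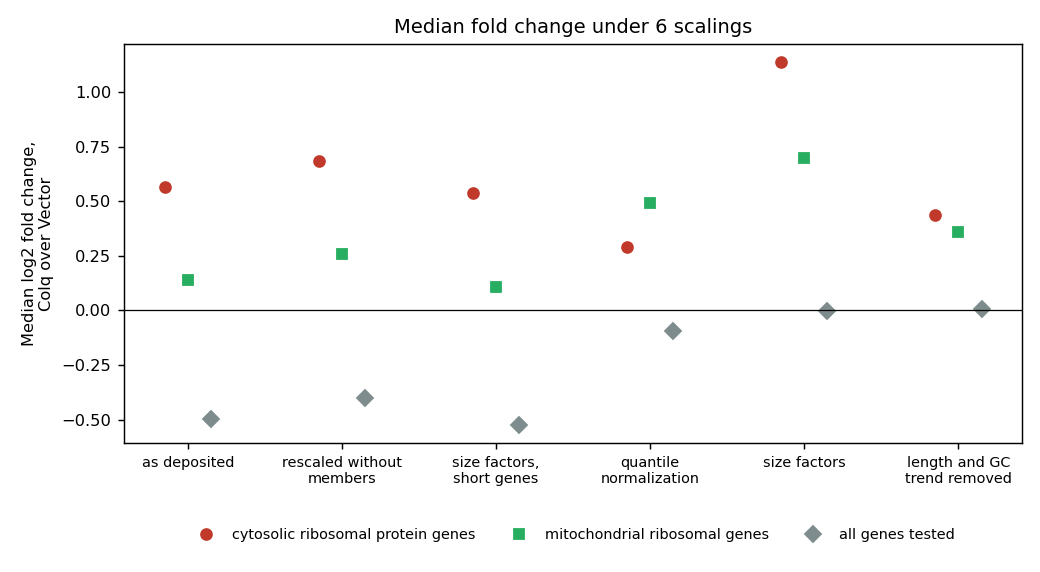
Median log2 fold change of Colq over Vector for the cytosolic ribosomal protein genes, the mitochondrial ribosomal genes and all tested genes under 6 scalings of the same values. The cytosolic genes lay above all genes in each, by the most with size factors (1.14 against 0.00), and were below the mitochondrial ribosomal genes with quantile normalization (0.29 against 0.49).

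The mitochondrial ribosome, which translates the few messages of the organelle, was set beside the cytosolic one as the most similar group of genes. Of its 78 genes, 34 were higher and 17 lower, with a median log2 fold change of 0.14, and they held 0.837% ± 0.0055 of TPM in Colq tumors, against 0.667% ± 0.0142 in Vector tumors (SD, n = 3 each). With size factors 67 were higher and 1 was lower (median 0.70). The shares over all tested genes were 11.3% higher and 59.6% lower, and 28% and 25.5% with size factors. After the length correction 45 were higher and 2 lower (median 0.36), against 0.44 in the cytosolic genes. Transcripts encoded in the mitochondrial genome held 7.77% ± 0.35 of TPM in Colq tumors, against 4.5% ± 0.674 in Vector tumors; their part in the shares above was not tested.

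Other genes of the translation apparatus had lower medians than the ribosomal proteins. Of 9 elongation factor genes 3 were higher and 6 lower, with a median of -0.32, and of 29 initiation factor genes 4 were higher and 19 lower, with a median of -0.51, which is close to the -0.50 of all genes. Over all tested genes 11.3% were called higher and 59.6% lower. With size factors the medians of the elongation and initiation factors were 0.26 and 0.05. Of 21 other messages known to carry the TOP motif, 7 were higher and 11 lower, with a median of -0.20 (0.37 with size factors). Eef2, the TOP message of the elongation factor that moves the ribosome along, stood at 824.3 ± 33.4 TPM in Colq tumors, against 1725 ± 89.7 TPM in Vector tumors (SD, n = 3 each; log2 fold change -1.06, limma adjusted p = 1.6e-05; -0.49 with size factors). Pabpc1, the poly-A binding protein, stood at 431.5 ± 13.7 TPM in Colq tumors, against 1052 ± 27.2 TPM in Vector tumors (-1.28, limma adjusted p = 9.7e-06; -0.71 with size factors).

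Larp1, which binds TOP messages, stood at 29.9, 28.9 and 27.9 TPM in Colq tumors, against 88 and 81.5 TPM in the portions of Vector tumor 1, 76.5 and 90.8 TPM in those of Vector tumor 2, and 85.1 TPM in Vector tumor 3. The groups were far apart (log2 fold change -1.51 ± 0.0577 SE, limma adjusted p = 9.7e-06; -0.95 with size factors and -0.52 after the length correction, both called). Of 15 genes of the mTORC1 axis and TOP regulators, 0 were higher and 12 lower, with a median of -0.68 (3 higher and 7 lower, median -0.14, with size factors). Of 8 chaperones and escorts of ribosomal proteins, 1 was higher and 5 lower, with a median of -0.36 (3 higher and 0 lower, 0.18, with size factors). The shares over all tested genes were 11.3% higher and 59.6% lower, and 28% and 25.5% with size factors. No direction of the chaperones is read from these counts.

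Some proteins of the ribosome have symbols outside the rule. Fau, which encodes a 40S protein fused to a ubiquitin-like domain, stood at 2712, 2662 and 2671 TPM in Colq tumors and 1496 to 1815 TPM in Vector libraries (log2 fold change 0.69, limma adjusted p = 0.00013). Rack1, a scaffold on the 40S head, stood at 1995 to 2084 TPM in Colq tumors and 1721 to 1810 TPM in Vector libraries (0.21, limma adjusted p = 0.0036).

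The tumors also differed in the markers of their cells. Of 10 melanocyte lineage markers 0 were higher and 8 lower, beside 59.6% lower over all tested genes (2 higher and 6 lower with size factors); their TPM summed to 12400 to 12800 in Colq tumors and 21310 to 25230 in Vector tumors. Of 10 macrophage markers 2 were higher and 1 lower, and 8 were higher and 0 lower with size factors (sums of 1590 to 1638 TPM in Colq tumors and 466.7 to 985.9 TPM in Vector tumors). Of 12 T cell markers 5 were higher and 1 lower, and 7 were higher and 0 lower with size factors. Their sums were 60.4 to 68.8 TPM in Colq tumors and 32.2 to 54.2 TPM in Vector tumors. Of 9 listed B and plasma cell markers 4 were tested, of which 3 were higher (Jchain, Igkc and Ighm) and 0 lower. Jchain passed the filter only through the Colq tumors (6.02 TPM, against 0.0867 TPM in Vector tumors). No direction of these cells is read from this count. Of 8 listed keratinocyte markers 6 were tested and 4 were higher, beside 11.3% over all tested genes. Krt15 among them passed the filter only through the Colq tumors (6.76 TPM, against 0.292 TPM in Vector tumors). The keratinocyte sums overlapped, at 38.7 to 44.2 TPM in Colq tumors and 0.99 to 111.1 TPM in Vector tumors. Of 5 tested erythroid markers 1 was lower, and these sums overlapped too (637.2 to 676.1 TPM in Colq tumors and 560.1 to 2686 TPM in Vector tumors). The 1 called, Alas2, passed the filter only through the Vector tumors (3.83 TPM, against 0.607 TPM in Colq tumors). The part of these cells in the ribosomal protein shares was not tested. Each count of 0 from limma given here was also 0 at an unadjusted p under 0.05, except the chaperones called lower with size factors, of which 1 passed.

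In the authors' deposited table, 87 of the 88 genes had an adjusted p, of which 83 were higher in Colq tumors and 0 lower at an adjusted p of 0.05, beside 20.1% higher and 20.4% lower over all genes. The median log2 fold change in the authors' deposited table was 1.11 for these genes and 0.03 for all genes. Rpl13a had 1.78 and Rpl4 0.07 (adjusted p = 0.51) in the authors' deposited table.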

How the data were processed

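RNA of bulk tumors was sequenced from poly-A libraries without strand information, per the labels' protocols. The authors deposited log2(TPM + 1). The submitters' processing notes name RSEM, mm39 and DESeq2, with aligner and release not given in the sources used here. The authors' deposited table, per the file headers, has mean normalized signal, log2 fold changes with standard errors, a test score and p-values. The sign of Colq gave its direction; which libraries it used was not stated. TPM was recovered from the deposited log2 values. No depth can be read from it, and the spread between tumors sets the precision.

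Groups came from sample titles. Portions were averaged on the log2 scale for tests and as TPM for shares. The test was limma 3.58.1 under R 4.3.3 (lmFit, then eBayes with its trend option; pseudocount 1) over genes averaging 1 TPM or more. Shares and ratios had an exact two-sided permutation test. Lengths were those of the principal transcript in GENCODE M21 and covered 96.2% of tested genes; the loess span was 0.5. The members, gene lists and tests were chosen with earlier results of these data known. Named genes were the 6 highest and 6 lowest log2 fold changes, the 5 highest means, those under the filter, paralogs with parents, the stalk, Rpl5 and Rpl11, and up to 3 per other list. Alternatives covered pseudocounts, filters, scaling, portions, robust eBayes, a block and the removal of single tumors. Alternatives added after the data were seen were the Colq libraries as 1 sample, the length trend fitted on other genes, and copies added to their parents. On simulated data for Colq against Vector, 200 of 13726 genes were changed. The fit recovered 78% at a log2 change of 1 and 93% at a log2 change of 2, with 8 false calls. The simulated noise was independent between genes, with no shift of the typical gene and no length trend. Its false calls therefore do not measure error from such shifts in the data. Python 3.11.15, pandas 2.3.3 and matplotlib 3.10.9 were also used. Some genes that the rule names are not reported here.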

Additional observations from a re-analysis of the deposited data

How the results depend on the processing

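Of 698 alternative values of 27 named genes, 617 stayed on their side of the threshold, 67 lost the call, 5 gained one and 9 reversed. Of the 617, 4 changed sign without being called on either side: Rpl7l1 (0.025 and 0.031) and Rpl39l (-0.10 and -0.07) with the length trend removed and with that of other genes removed. With size factors Rpl8 (0.42), Rps2 (0.41), Rpl3 (0.37), Rps4x (0.35), Rpl4 (0.10) and Rpl7l1 (0.44) turned positive on the log2 scale, and with quantile normalization Rpl7 (-0.19), Rpl11 (-0.11) and Rpl7l1 (0.25) reversed. The number of ribosomal protein genes called lower, 6, became 0 with size factors, 10 with quantile normalization (53 higher), 1 when TPM was rescaled over genes outside the group, 3 with the length and GC trend removed, 3 with that trend fitted on other genes, and 1 with the Colq libraries as 1 sample. Mitochondrial ribosomal genes called higher became 67 with size factors and 64 with quantile normalization, and those called lower became 1, 1, 2 with the trend removed, 2 with the trend of other genes, and 6 with the Colq libraries as 1 sample. The difference in share became 8.05 percentage points without mitochondrial, immunoglobulin and haemoglobin genes, against 6.92. The cause was not tested.

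Leaving out 1 tumor gave 62 to 69 genes called higher and 4 to 7 called lower, 31 to 36 and 14 to 19 mitochondrial ribosomal genes, a difference in share of 6.5 to 7.23 points and in the 60S to 40S ratio of -0.138 to -0.12. Titles number tumors in both groups, and no pairing was assumed. Same-numbered tumors correlated at 0.03, 0.007 and 0.044 in their deviations, and different-numbered ones at -0.054 to 0.021. Deviations from the means of 3 tumors cannot decide whether the numbers pair them. With a replicate block 66 genes were higher and 4 lower, and 34 and 16 mitochondrial ribosomal genes. Rpl8 and Rps2 were the named genes that lost their call under the block (adjusted p = 0.086 and 0.079).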
